A study of Homo sapiens with 4 samples.

Results

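COL5A1, which encodes an alpha chain of type V collagen, and 9 other genes for fibrillar collagens were examined in 3 lists of Star-PAP binding sites from HEK293 cells, a human embryonic kidney line. The 10 genes, named here the fibrillar collagen genes, were COL5A1, COL1A1, COL1A2, COL2A1, COL3A1, COL5A2, COL5A3, COL11A1, COL11A2 and COL27A1, out of 20144 protein-coding genes of the GENCODE annotation, and every listed site inside their boundaries was counted. COL5A1 was selected because it held more sites in the lists from depleted cells than in the control list, so its own site numbers are a description. The other genes were selected by family. Together the genes held 99 of the 411400 sites of the control list, 162 of the 325797 sites of the siStar-PAP list and 120 of the 294402 sites of the siRBM10 list.

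Star-PAP, encoded by TUT1, is a nuclear poly(A) polymerase that adds the poly(A) tail to a selected set of messenger RNAs and helps recruit the factors that cleave them, and RBM10 is an RNA-binding protein that regulates splicing and works with Star-PAP on some of them. Fibrillar collagens are triple helices of long Gly-X-Y repeats that assemble into the fibrils of the extracellular matrix. Type I is the main collagen of skin, tendon and bone, type II of cartilage and type III of vessels and hollow organs. Types V and XI are minor chains that set the diameter of the type I and type II fibrils, and type XXVII is found mainly in cartilage.

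RNA was crosslinked to protein with ultraviolet light, precipitated with an antibody to Star-PAP and sequenced (HITS-CLIP). The series has 4 libraries, 1 for each condition: the anti-Star-PAP precipitate of cells labelled only as StarPAP pulldown (control), the same precipitate after siRNA against Star-PAP (siStar-PAP), the same after siRNA against RBM10 (siRBM10), and an IgG precipitate, whose list was not analysed here but which served as background when the peaks were called. All were HEK293 cells, and the labels give no sequence or supplier of the siRNAs. With 1 library for each condition no difference between conditions had a replicate check, and every interval below covers counting error only. Each site is a summit, the single base of hg19 at which a peak was highest, with a score, the −log10 of the peak's p-value. The lists give no strand, peak width or number of tags, so a summit inside a gene may belong to either strand, and the depth of each library cannot be read from them.

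All lists had a limit of 0.05 on the p-value of a peak. The commonest score was 1.33 in the control list, 2.92 in the siStar-PAP list and 3.25 in the siRBM10 list, so the scores are not on a common scale, and any single limit on them removes different parts of the 3 lists. The targeted genes held 5, 8 and 3 summits (TUT1) and 7, 17 and 9 summits (RBM10) in the control, siStar-PAP and siRBM10 lists, but a summit number is not an RNA level and checks no depletion.

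The letters beneath the 8 control summits of COL5A1 are shown first, because they are the only control sites of the gene and can be set against the sites of the depleted cells. Each line gives 29 bases of hg19, 5′ to 3′ on the gene's strand, read from the reference genome, with the summit base in capitals.
COL5A1 control, chr9:137545961-137545989 (+), score 4.03: gcttagggtgtgtaGtgctgggggtgtgt
COL5A1 control, chr9:137621661-137621689 (+), score 4.37: catgcgggcacgggTgtgcatgagcctgt
COL5A1 control, chr9:137638110-137638138 (+), score 2.13: ctggagagacgcctGcacactgccctcct
COL5A1 control, chr9:137652592-137652620 (+), score 13.8: acacacaccccacaCatacacgaacacca
COL5A1 control, chr9:137680585-137680613 (+), score 2.06: aaacaagtggatggAtgggtgggcagatg
COL5A1 control, chr9:137693105-137693133 (+), score 3.06: aggagcacgcgggcAgagtcacccgtcgt
COL5A1 control, chr9:137698234-137698262 (+), score 2.26: aggggtatttccttGggattggggatggg
COL5A1 control, chr9:137720616-137720644 (+), score 5.74: catcacagatacacAccatacacagacat

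All 8 lay in introns. The strongest, 119 kb from the start of the gene, had a score of 13.8 that only 217 control summits (0.0527% of the list) reached, counting itself. It was also the only COL5A1 site in all 3 lists, with a siStar-PAP summit 5 bases away and a siRBM10 summit 76 bases away. Of the 8 windows, 5 held CACA or TGTG, which are the same letters on opposite strands, against 29.8% of all 29-base windows of the gene. These letters were chosen after the windows were seen. The siStar-PAP windows of COL5A1 held them in 21 of 74 (28.4%) and the siRBM10 windows in 22 of 53 (41.5%). COL27A1 on the same chromosome held them in 0 of 9 control windows (Wilson 95% interval 0% to 29.9%).

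Few summits lay in exons, 5, 19 and 10 over the 10 genes in the control, siStar-PAP and siRBM10 lists. Those shown next are examples chosen after the sites were seen: the COL5A1 summits in coding sequence or UTR, a coding site common to 2 lists, and sites in the collagen repeat. COL5A1 had 1 siStar-PAP summit in coding sequence and 1 siRBM10 summit in the 3′-UTR. COL27A1 had a coding summit at the identical base in the control list (score 2.25) and the siStar-PAP list (score 2.32). The COL1A1 and COL1A2 windows lay in codons of the Gly-X-Y repeat, written gg followed by any base for each glycine. Capitals again mark the summit.
COL5A1 siStar-PAP, chr9:137733999-137734027 (+), coding: ccagaccaagaaagGctaccagaagacgg
COL5A1 siRBM10, chr9:137736251-137736279 (+), 3′-UTR: gtccttttctcctgTcattttcttcctct
COL27A1 control and siStar-PAP, chr9:116984532-116984560 (+), coding: agtccccggcctcaTtgtaagtacattga
COL1A1 siRBM10, chr17:48272932-48272960 (−), coding: ccccctggccctgcTggtgctgctggccc
COL1A2 siRBM10, chr7:94029563-94029591 (+), coding: gtccacctggtcctCctggcccccctggt

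The question the lists pose is whether the higher summit number of COL5A1 after depletion was shared by the other fibrillar collagen genes. At 2 times control or more it was shared by 4 of them in the siStar-PAP list, where 43.1% of all protein-coding genes tested stood as high, and by 3 in the siRBM10 list, where 37.8% did, while other genes of the family went the opposite way. In the lists as deposited the family split by base composition. The 6 genes with a GC content over 50% (COL1A1, COL11A2, COL5A1, COL2A1, COL5A3 and COL27A1; 490 kb in all) held 22 control, 144 siStar-PAP and 103 siRBM10 summits. The 4 genes under 38% (COL1A2, COL5A2, COL3A1 and COL11A1; 501 kb in all) held 77, 18 and 17. On nearly equal length, the GC-rich genes therefore held 22.2% of the family's control summits, 88.9% of its siStar-PAP summits and 85.8% of its siRBM10 summits. COL5A1, chosen for its ratio, supplied 8, 74 and 53 of the GC-rich summits, so these shares are partly set by the choice. Among all protein-coding genes, those over 50% GC, with 10.6% of the gene length, held 4.30%, 22.3% and 20.4% of the summits.

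In ratios of summit numbers, the GC-rich genes stood at 6.55 times control in the siStar-PAP list (exact 95% interval 4.16 to 10.8) and 4.68 times in the siRBM10 list (2.93 to 7.79). Without COL5A1, whose ratio had chosen it, the other 5 held 14, 70 and 50 summits, which is 5.00 times (2.79 to 9.61) and 3.57 times (1.94 to 7.0) the control number. The AT-rich genes stood at 0.23 times (0.13 to 0.39) and 0.22 times (0.12 to 0.38), but at 1.29 and 1.21 times when only summits with p of at most 0.01 were counted, a limit that the commonest control score fails and the commonest depletion scores pass. The 9 genes other than COL5A1 gave 91, 88 and 67 summits and ratios of 0.97 (0.71 to 1.31) and 0.74 (0.53 to 1.02), so the directions cancelled in the sum. The same ratio was 0.792 and 0.716 over the whole lists and 1.02 and 0.897 over all protein-coding genes.

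A gene was called higher where a depletion list held at least 2 times the control number of summits and lower where it held at most 0.5 times, among genes with at least 5 summits over both lists. Of the 10 genes 9 could be called, since COL11A2 held no summit. In the siStar-PAP list 5 were higher and 4 lower, against 43.1% and 20.2% of 12833 protein-coding genes. In the siRBM10 list 4 were higher and 3 lower, against 37.8% and 24.2% of 12382 genes. Among genes with a GC content over 50%, 93.3% were higher in the siStar-PAP list and 88.1% in the siRBM10 list, while 0.278% and 0.696% were lower. Among genes under 38%, 67.2% and 76.4% were lower, and 1.25% and 0.809% higher. The collagen genes thus went the way of most genes of their base composition. The median log2 ratio was 0.84 and 0.37 over the 10 genes (each count with 0.5 added, which puts COL11A2 at 0) and 1.69 and 0.74 over the 9 tested, beside 0.49 and 0.24 over all genes tested. The family medians include COL5A1, chosen for its ratio, and fall between genes that went opposite ways. They therefore do not measure the family against all genes.

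**Figure D1:**
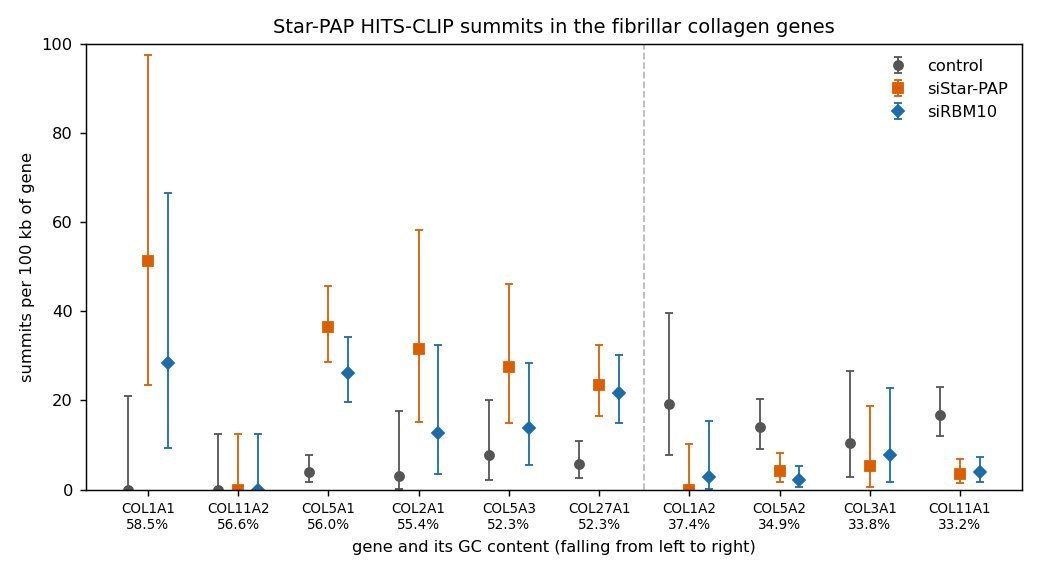
Summits per 100 kb (vertical axis) in each of the 10 fibrillar collagen genes, ordered by GC content, in the control (circles), siStar-PAP (squares) and siRBM10 (diamonds) lists, 1 library each. Bars are exact 95% Poisson intervals of counting error. Left of the dashed line, where GC content is over 50%, the depletion lists lie above control in every gene except COL11A2, which is at 0 in all 3; right of it they lie below control.

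Among the chains of type V collagen, COL5A1 (chr9:137533649-137736689, plus strand, 203 kb, GC content 56.0%) held 8 control, 74 siStar-PAP and 53 siRBM10 summits. Per 100 kb of gene these were 3.94, 36.4 and 26.1, which is 9.25 times control (4.46 to 22.2) after depletion of Star-PAP and 6.62 times (3.13 to 16.1) after depletion of RBM10. The depletion lists differed less from each other, at 1.40 times (0.968 to 2.03). COL5A2 (chr2:189896624-190090038, minus strand, 193 kb, GC content 34.9%), whose product joins that of COL5A1 in the type V trimer, held 27, 8 and 4 summits. Its ratios were 0.30 (0.12 to 0.67) and 0.15 (0.04 to 0.43), so in the lists as deposited partners in a single trimer, on genes of nearly equal length, went opposite ways. At p of at most 0.01 COL5A2 held 3, 8 and 4 summits, and its ratios turned to 2.67 and 1.33. COL5A3 (chr19:10070237-10121180, minus strand, 50.9 kb, GC content 52.3%), the third type V chain, held 4, 14 and 7 summits, 3.50 times (1.10 to 14.6) and 1.75 times (0.44 to 8.15) control. Its siRBM10 ratio lay below the level for a call, and that interval spans equality.

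**Figure D2:**
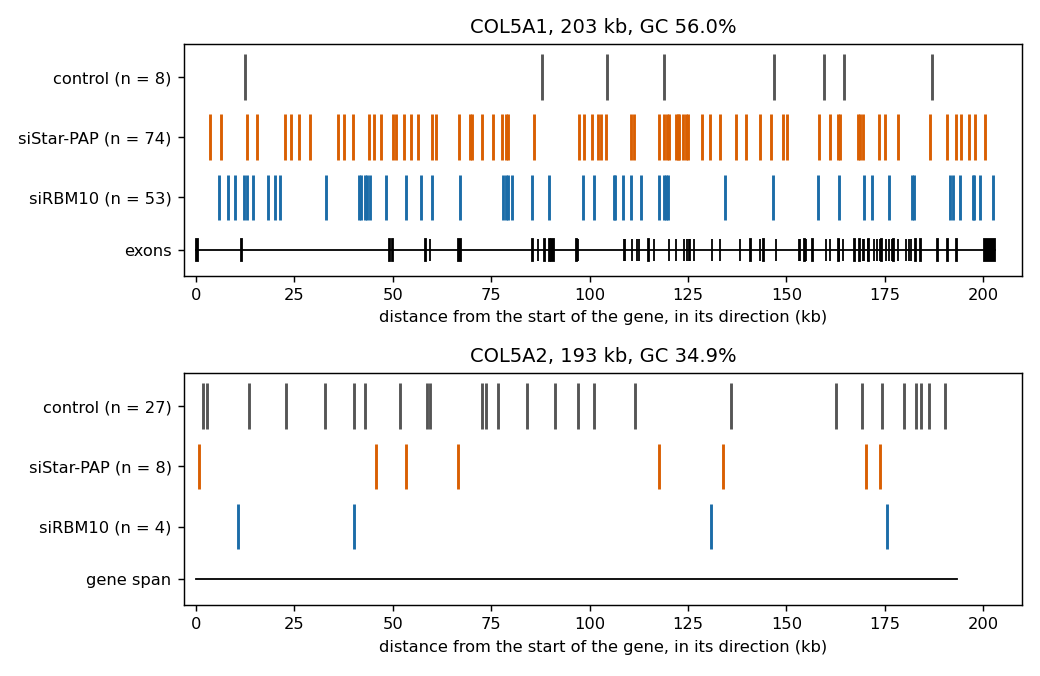
Position of every summit (vertical ticks) along COL5A1 and COL5A2, as distance in kb from the start of the gene, in rows for the 3 lists, with the annotated exons of COL5A1 as black boxes. COL5A1 goes from 8 summits in the control row to 74 and 53 in the depletion rows, spread over the whole gene, and COL5A2 from 27 to 8 and 4.

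Type I collagen showed the same split within a trimer. COL1A1 (chr17:48261462-48278993, minus strand, 17.5 kb, GC content 58.5%) held 0, 9 and 5 summits. These would be 3.0 and 1.67 times control if the control were set at 3 summits, the limit taken for a count of 0. With counting error in both numbers, the exact intervals of the ratios start at 1.97 (siStar-PAP) and 0.916 (siRBM10). COL1A2 (chr7:94024207-94060539, plus strand, 36.3 kb, GC content 37.4%) held 7, 0 and 1. The siStar-PAP number would be 2.33-fold lower than control by the same limit, and the exact interval of its ratio ends at 0.694. In the siRBM10 list COL1A2 stood at 0.14 times control (0.00317 to 1.11). These are few summits, and the siRBM10 intervals of both genes include equality.

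Type II and type III collagen are each built from a single chain. COL2A1 (chr12:48366750-48398337, minus strand, 31.6 kb, GC content 55.4%) held 1, 10 and 4 summits, 10.0 times (1.42 to 434) and 4.0 times (0.40 to 197) control. COL3A1 (chr2:189839099-189877472, plus strand, 38.4 kb, GC content 33.8%), a neighbour of COL5A2, held 4, 2 and 3, with ratios of 0.50 (0.0452 to 3.49) and 0.75 (0.11 to 4.43). At these numbers no difference was detectable for COL3A1 in either list or for COL2A1 in the siRBM10 list.

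The chains of the cartilage fibrils divided as well. COL11A1 (chr1:103342023-103574428, minus strand, 232 kb, GC content 33.2%) held 39, 8 and 9 summits, 0.21 times (0.0828 to 0.45) and 0.23 times (0.0983 to 0.48) control, the largest control number among the 10 genes. At p of at most 0.01 COL11A1 held 8, 8 and 9 summits, so the lower numbers after depletion were no longer seen. COL27A1 (chr9:116917817-117074791, plus strand, 157 kb, GC content 52.3%) held 9, 37 and 34, 4.11 times (1.95 to 9.69) and 3.78 times (1.77 to 8.96) control. COL24A1, a fibrillar collagen gene not among the 10, was long and AT-rich (428 kb, GC content 36.4%) and held 102, 19 and 24 summits, 0.19 times (0.11 to 0.31) and 0.24 times (0.14 to 0.37) control.

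COL11A2 (chr6:33130458-33160276, minus strand, 29.8 kb, GC content 56.6%) held 0 summits in every list, which allows up to 10.1 per 100 kb. The nearest summits lay 165 kb before and 278 kb after the gene in the control list, 452 and 290 kb in the siStar-PAP list and 370 and 295 kb in the siRBM10 list. The gene lies in a stretch of chromosome 6, the major histocompatibility complex, where summits were few: the 500 kb from base 30000001 held 0 in all lists, and that from base 33500001, just beyond the gene's own, held 23, 157 and 120. The lists placed another 84, 28 and 23 summits on alternative sequences of chromosome 6, and only uniquely mapped reads had been kept. COL11A2 therefore could not be assessed in either direction.

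Gene length was examined through genes of like length. COL5A1, COL5A2 and COL11A1 all belong to the longest of 10 length classes of protein-coding genes, those of at least 160 kb, whose summed ratios were 0.687 and 0.633. COL5A2 and COL11A1 stood below these values, and COL5A1, chosen for its ratio, above. COL2A1, COL11A2, COL1A2 and COL3A1 share the class of 27.2 to 39.5 kb (1.98 and 1.66). Of these COL2A1 was higher and COL1A2 lower in both depletion lists, but both siRBM10 intervals include equality, and COL11A2 held no summit. In the longest class the only higher collagen gene was COL5A1, whose ratio had chosen it, so the difference in direction there is a description. At p of at most 0.01 COL5A2 (3, 8 and 4 summits) and COL11A1 (8, 8 and 9) were no longer below control. In the lists as deposited, COL2A1 and COL1A2, of like length, differed in direction beyond counting error in the siStar-PAP list.

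The chromosome went with the direction of some of the genes. COL27A1 and COL5A1 are on chromosome 9, where the ratio over all summits was 0.837 in the siStar-PAP list and 0.737 in the siRBM10 list, well below either gene's. COL2A1 is on chromosome 12 (0.806 and 0.731), and COL11A1 on chromosome 1 (1.02 and 0.934). COL5A3 and COL1A1 are on chromosome 19 (2.89 and 2.44) and chromosome 17 (2.05 and 1.78), COL1A2 on chromosome 7 (0.738 and 0.670), and COL5A2 and COL3A1 on chromosome 2 (0.688 and 0.620). The ratio of the chromosome lay on the same side of 1 as that of the gene for 5 of 9 genes in the siStar-PAP list and 6 of 9 in the siRBM10 list.

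In the lists as deposited, base composition separated the directions of the 9 genes with summits. Over 10 classes of all protein-coding genes by GC content, the ratio rose at every step, from 0.376 in the lowest class to 7.59 in the highest in the siStar-PAP list and from 0.324 to 6.72 in the siRBM10 list. Control summits fell along the classes from 17.8 to 3.60 per 100 kb, while siStar-PAP summits climbed from 6.69 to 31.9 in the ninth class. All 4 AT-rich collagen genes were in the lowest class. COL27A1 and COL5A3 were in the eighth (4.76 and 3.80), COL5A1, COL2A1 and COL11A2 in the ninth (6.39 and 4.94) and COL1A1 in the highest.

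**Figure D3:**
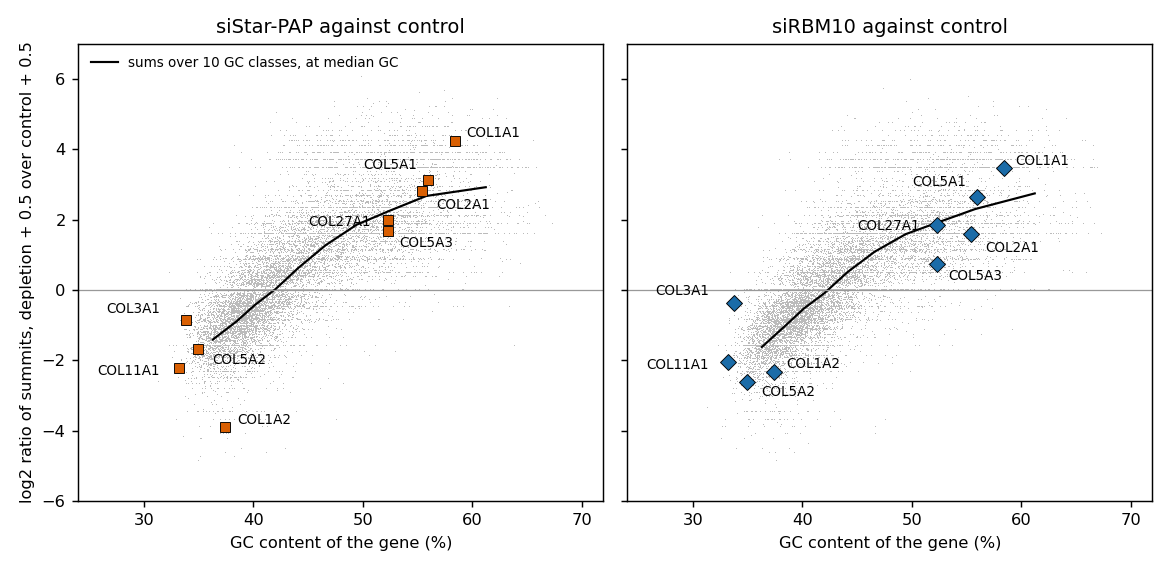
Log2 ratio of summit numbers, with 0.5 added to each count, against the GC content of the gene (%), for siStar-PAP (left) and siRBM10 (right). Grey dots are protein-coding genes with at least 5 summits over both lists, the black line gives the summed ratio of 10 GC classes at the median GC content of each, and the large symbols are the fibrillar collagen genes other than COL11A2. The large symbols fall within the grey cloud and rise with GC content, COL5A1 among them.

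Genes on the same chromosome and in the same GC class gave a closer comparison. For COL5A1, 95 other genes of the ninth class on chromosome 9 summed to 7.67 times control in the siStar-PAP list and 5.58 times in the siRBM10 list, both inside the counting intervals of the gene's own 9.25 and 6.62. The corresponding 80 genes for COL27A1 gave 4.24 and 3.25 beside its 4.11 and 3.78. For COL11A1 the 195 genes gave 0.410 and 0.366, and for COL5A2 the 160 genes gave 0.400 and 0.346, above the 0.15 of COL5A2 in the siRBM10 list but inside its interval.

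A Poisson regression over all 20144 genes predicted the summits of each gene in each list from its length, GC content and chromosome. From length alone the predicted siStar-PAP ratio of COL5A1 was 0.914, and from length and chromosome 1.04. Adding GC content raised it to 6.20, with 8.43, 52.2 and 43.5 summits predicted for the control, siStar-PAP and siRBM10 lists where 8, 74 and 53 were found. The observed ratio was then 1.49 times the predicted in the siStar-PAP list (0.72 to 3.59) and 1.28 times in the siRBM10 list (0.61 to 3.13), and both intervals include 1. Summed over the ninth GC class, that of COL5A1, observed over predicted summits were 1.15 (control), 1.03 (siStar-PAP) and 0.975 (siRBM10). In the highest class they were 1.41, 0.952 and 1.07. The fit thus gave too few control summits in these classes, which raises the predicted ratios there. The siStar-PAP summits of COL5A1 were 1.42 times the prediction, at the 84.6th percentile of 10260 genes with at least 5 predicted, and the siRBM10 summits 1.22 times, at the 74.1st of 9212.

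For the other genes the observed siStar-PAP ratio over the predicted was 0.97 in COL27A1, 0.63 in COL5A3, 1.49 in COL2A1, 0.95 in COL5A2, 1.74 in COL3A1 and 0.80 in COL11A1. The 6495 genes with at least 5 summits predicted in both lists spread from -1.15 to 1.23 on the log2 scale (5th to 95th percentile, 0.5 added to each count). COL27A1, COL5A2 and COL11A1 meet that limit and lay inside this range. COL5A3, COL2A1 and COL3A1 had fewer than 5 predicted in a list, so the range does not describe genes like them. In the siRBM10 list the values were 1.05 in COL27A1, 0.74 in COL2A1, 0.53 in COL5A2 and 0.96 in COL11A1. The corresponding range of 6252 genes was -1.13 to 1.27 on the log2 scale. COL5A3 (0.38, 7 summits) lay below it and COL3A1 (2.98, 3 summits) above, each with a counting interval that includes 1. Both again had fewer than 5 predicted in a list, so they are not among the genes this range describes. COL1A1, with no ratio, had predictions of 0.568, 6.91 and 5.45 beside its 0, 9 and 5. COL1A2 was predicted 6.14, 3.37 and 2.98 beside its 7, 0 and 1. COL11A2 was predicted 1.06, 10.0 and 8.14 beside its 0, 0 and 0. The 3 properties together accounted for 72.2% of the deviance of the siStar-PAP share among genes, GC content alone for 67.6%, length alone for 23.8% and chromosome alone for 20.2%.

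The ground around each gene moved the same way as the gene, in a comparison added after the data were seen. The 200 kb on each side of COL5A1 held 24, 119 and 80 summits, 4.96 and 3.33 times control at a GC content of 51.9%. The flanks of COL1A1 held 24, 128 and 106 and those of COL5A3 held 29, 109 and 97. In the AT-rich genes the flanks fell, with 74, 26 and 15 around COL11A1 and 71, 25 and 28 around COL1A2. Flank ratios of the GC-rich genes other than COL11A2 ranged from 2.19 to 5.33 in the siStar-PAP list, and those of the AT-rich genes from 0.338 to 0.352. COL3A1 lies within the flanks of COL5A2, and most of COL5A2 within those of COL3A1. The flanks of these neighbours therefore count summits of the genes again and are not separate from them. The flanks of the AT-rich genes had GC contents of 35.1% to 36.8%, and those of COL2A1 and COL27A1, at 46.5% and 49.0%, were lower in GC than the genes. The part of the surroundings in the genes' ratios was not tested.

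**Figure D4:**
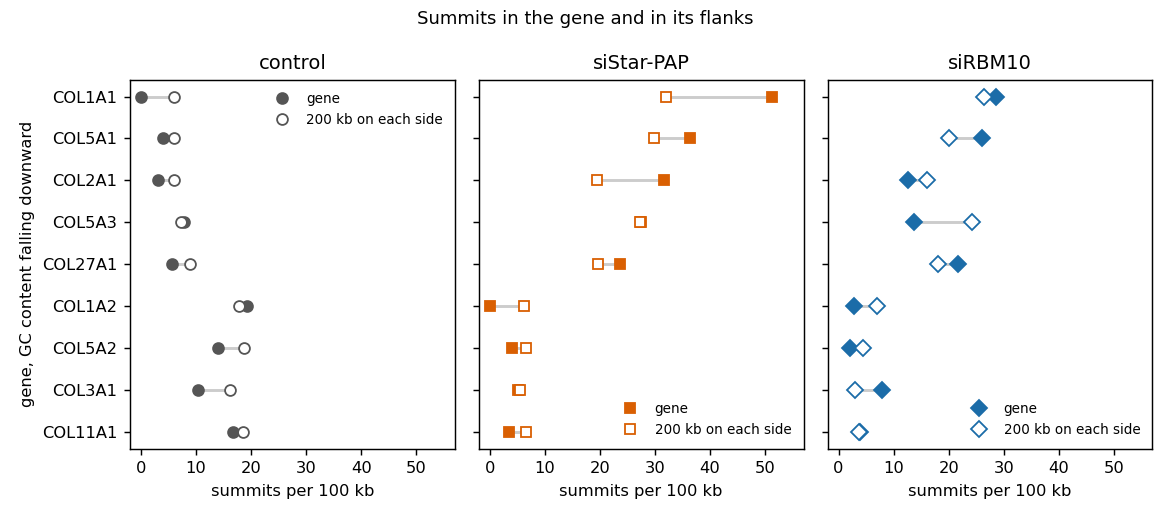
Summits per 100 kb (horizontal axis) within each of 9 fibrillar collagen genes (filled) and in the 200 kb on each side (open), in the control, siStar-PAP and siRBM10 lists, with genes ordered by falling GC content. In the siStar-PAP panel the flanks of the 5 GC-rich genes and of the 4 AT-rich genes lie apart, as the genes do. The flanks of COL5A2 include COL3A1, and those of COL3A1 include most of COL5A2.

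Protein-coding genes within 500 kb of COL5A1 were few. RXRA, the retinoid X receptor gene, held 4, 51 and 35 summits (12.8 and 8.75 times control), and OLFM1, which encodes a secreted olfactomedin, 2, 16 and 8. The ficolin genes FCN1 and FCN2 held 0, 7 and 3 and 0, 0 and 2. Of 3106 protein-coding genes of 0.5 to 2 times its length, those most like COL5A1 in the 3 numbers, by the distance between log2 counts, were TBCD (8, 68 and 61), MPRIP (8, 62 and 57), SPTBN4 (8, 61 and 52), SH3PXD2A (10, 65 and 55) and DNAH17 (9, 68 and 65). Their GC contents were 51.1% to 52.8%, and none lay on chromosome 9.

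Summits in COL5A1 were spread over the gene. In 4 equal stretches from its start the siStar-PAP list held 15, 18, 24 and 17, the siRBM10 list 16, 12, 11 and 14 and the control list 1, 1, 3 and 3. The median spacing was 2.06 kb in the siStar-PAP list and 2.42 kb in the siRBM10 list. Introns held 71 of 74 siStar-PAP and 51 of 53 siRBM10 summits, and exons, which make up 5.50% of the gene's length, held 4.05% and 3.77%. Over all 10 genes the exon share was 5 of 99 in the control list (5.05%), 19 of 162 in the siStar-PAP list (11.7%) and 10 of 120 in the siRBM10 list (8.33%), where exons take 8.98% of the length. Over all protein-coding genes the shares were 6.20%, 13.6% and 13.9%, so the order of control below depletion was not particular to the collagens. COL5A3 had 5 of its 14 siStar-PAP summits in coding sequence.

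Positions were shared by a minority of summits in most comparisons. A summit of COL5A1 was counted as shared when another list had a summit within 500 bp. Of its 8 control summits, 2 were shared with the siStar-PAP list and 3 with the siRBM10 list, beside 35.2% and 25.9% of control summits in all genes with a GC content over 50%. COL27A1 shared 5 of its 9 control summits with the siStar-PAP list and 3 with the siRBM10 list. In COL5A1 22 of 74 siStar-PAP summits (29.7%) were shared with the siRBM10 list, which is 23 of 53 (43.4%) counted from the other side. Over the 6 GC-rich genes 38 of 144 siStar-PAP summits (26.4%) had a siRBM10 summit this near, beside 26.9% in all genes with a GC content over 50%. In the 4 AT-rich genes 3 of 77 control summits (3.90%) were near a siStar-PAP summit and 3 near a siRBM10 summit, beside 8.02% and 6.30% in all genes under 38%. These genes also held few depletion summits, and the part of summit density in the share was not tested. COL27A1 held the other site in all 3 lists, at chr9:117040794, 123 kb from its start, with a score of 5.52 and the nearest summits 40 (siStar-PAP) and 224 bases (siRBM10) away.

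The mean GC content beneath the summits of COL5A1 was set beside that of the whole gene. Each SD is the spread between summits and does not measure the error of a mean. The 20 bases around the COL5A1 summits had a GC content of 59.4% ± 11.8 (SD, n = 8) in the control list, 56.5% ± 11.7 (n = 74) in the siStar-PAP list and 56.8% ± 12.6 (n = 53) in the siRBM10 list, beside 56.0% for the gene. Over all 10 genes the values were 39.2% ± 14.7, 55.5% ± 13.2 and 53.6% ± 14.8. The genes that held the summits differed between lists. AT-rich genes held 77 of the 99 control summits, and GC-rich genes 144 of the 162 siStar-PAP summits. Within the GC-rich genes the values were 55% ± 12.7, 57.6% ± 11.9 and 55.9% ± 13.5, beside 54.5% for those genes. Within the AT-rich genes they were 34.7% ± 11.9, 38.9% ± 11.8 and 39.7% ± 15, beside 34.2%. The pooled values thus differed more between lists than those within either group. Some genes stood further apart, such as COL27A1, whose 37 siStar-PAP summits had 58.8% ± 10.6 beside 52.3% for the gene, and COL2A1, whose 4 siRBM10 summits had 71.2% ± 8.54 beside 55.4%. The AUA triplet, named in work on Star-PAP targets and written ATA in the genome, stood on the gene's strand in 10 of 74 siStar-PAP windows of 29 bases (13.5%), 8 of 53 siRBM10 windows (15.1%) and 2 of 8 control windows of COL5A1, beside 14.2% of all such windows of the gene. In the AT-rich genes 43.1% to 52.9% of all windows held it.

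Control scores differed between the GC-rich and the AT-rich genes. All 77 control summits of the AT-rich genes together took 3 different scores, and 60 of them had the list's commonest score of 1.33, while the 22 control summits of the GC-rich genes took 22 different scores and none had 1.33. The highest control score in an AT-rich gene was 2.28, and the 8 of COL5A1 ranged from 2.06 to 13.8. At p of at most 0.01 the AT-rich genes kept 14, 18 and 17 summits. No depletion summit of these genes could be lost at that limit, since their lowest scores were 2.64 (siStar-PAP) and 2.77 (siRBM10), so the change came from the control list and the difference in score scale cannot be told apart from one in binding. COL5A1 kept 8, 36 and 40 at that limit and held 4, 3 and 3 with a score of 4 or more, where no excess over control remained. The median score of its summits was 3.55 (control), 1.97 (siStar-PAP) and 2.35 (siRBM10). The commonest scores of the whole lists were 1.33, 2.92 and 3.25. The difference in score scale applies to these comparisons as well.

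Lists of genes that act with the fibrillar collagens were counted in the same way. Of 33 other collagen genes, 12 were higher and 8 lower among 32 tested in the siStar-PAP list (43.1% and 20.2% of all genes), and 12 and 7 among 31 in the siRBM10 list (37.8% and 24.2%), numbers close to those shares. Over 50% GC, 10 of 11 tested were higher in the siStar-PAP list (93.3% of all such genes), and under 38%, 3 of 6 were lower (67.2%). COL25A1, a transmembrane collagen of the AT-rich kind (GC content 36.9%), held 85, 25 and 31 summits. COL4A5, a basement membrane chain at 35.8%, held 70, 38 and 29, and COL23A1, another transmembrane collagen, 20, 74 and 66 at 50.6%.

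Of 32 genes for collagen maturation, 15 were higher and 6 lower among 25 tested in the siStar-PAP list, and 15 and 5 in the siRBM10 list, where the shares over all genes were again 43.1% and 20.2%, and 37.8% and 24.2%. All 12 tested over 50% GC were higher in both lists (93.3% and 88.1% of all such genes), and all 3 tested under 38% were lower (67.2% and 76.4%). ADAMTS2 and ADAMTS3 encode related procollagen N-proteinases. ADAMTS2 (GC content 53.9%) held 9, 62 and 34 summits, ADAMTS3 (35.8%) held 37, 7 and 10, and LOXL2, for a cross-linking lysyl oxidase, 16, 22 and 16 at 48.4%. Of 18 partners and receptors of collagen fibrils, 5 were higher and 1 lower among 12 tested in the siStar-PAP list, and 6 and 3 among 13 in the siRBM10 list, beside the same shares over all genes. Only 1 of those tested was over 50% GC and 2 were under 38%, too few to describe by base composition. Among genes for integrin subunits that bind collagen, ITGA11 held 11, 36 and 33 summits and ITGA1 held 29, 12 and 14. ITGB1, which encodes their common partner, held 22, 16 and 14. TNXB and DDR1, which like COL11A2 lie in the summit-poor stretch of chromosome 6, held 0, 2 and 1 and 0, 0 and 0 despite GC contents of 54.3% and 55.2%.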

How the data were processed

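The authors trimmed reads (cutadapt 1.14, quality by FastQC 0.72), mapped them to hg19 with BWA 0.7.12 and called peaks with MACS2 in each library against IgG, per the paper's methods and the submitters' processing notes. They deposited 1-base summits with −log10 p. The lists hold no read numbers, so depth per library was not used. Samples were grouped by their titles (n = 1 each). Here, summits inside GENCODE 44 genes (lifted to GRCh37) on chromosomes 1 to 22, X and Y were counted with Python 3.11.15, pandas 2.3.3, scipy 1.17.1 and pysam 0.24.0. Intervals are exact at 95% (Poisson; binomial for ratios) and Wilson for shares. Poisson regressions used log2 length, GC content with its square, and chromosome, separately for each list, and were checked on simulated data. The genes named are the 10 genes, COL24A1, the targeted genes, neighbours within 500 kb, the 5 most like COL5A1 and the top 3 of each list. TNXB and DDR1, from the list of partners and receptors, are named besides for their place on chromosome 6. Members and lists were chosen with earlier results of these data known. Alternatives were stricter scores, merged summits, exons only, gene limits wider by 1 kb, other distances and other terms. No test compared conditions.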

Additional observations from a re-analysis of the deposited data

How the results depend on the processing

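Of 191 values recomputed under alternatives, 150 stayed within the interval of the main value, 31 moved outside it and 10 reversed in direction. The interval covers counting error, or is the mean ± SD for GC content. The reversed values include the siStar-PAP ratio of COL3A1, although its new value lies inside its interval. The siRBM10 ratio of COL3A1 crossed 1 inside its interval and is counted among the 150. At a score of 4 or more the COL5A1 ratio turned to 0.750 in both depletion lists, the other GC-rich genes gave 1.5 (siStar-PAP) and 0.00 (siRBM10), and COL27A1 gave 0.00 (siRBM10). At p of at most 0.01 the AT-rich genes turned to 1.29 and 1.21 and COL5A2 to 2.67 and 1.33. COL3A1 went to 2.0 (siStar-PAP) and 3.0 (siRBM10), and COL11A1 to 1.0 (siStar-PAP) and 1.12 (siRBM10). Summits fell to 34 (control), 99 (siStar-PAP, 36 in COL5A1) and 90 (siRBM10). In exons only, the other GC-rich genes gave 13 (siStar-PAP) and the AT-rich genes 0.750 and 0.50. The observed over predicted ratio of COL5A1 was 10.1 and 8.11 from length, and 8.86 and 7.20 from length and chromosome. The share of control summits near siStar-PAP summits was 21.2% at 1000 bp and 1.01% at the same base, and near siRBM10 summits 2.02% at 100 bp, 0.00% at the same base and 17.6% at the stricter p. That of siStar-PAP near siRBM10 was 4.94%, 35.8%, 0.617% and 16.2% (100 bp, 1000 bp, same base, stricter p), and the reverse 6.67%, 49.2%, 0.833% and 16.7%. A score limit removes different parts of the lists, whose commonest scores differ. A limit of 4 kept a smaller share of the control list than of the depletion lists. The cause of the changes under alternatives was not tested. No paired analysis was possible because each condition has 1 library. The lists hold no tags, strand or read numbers, so weak summits could not be checked further, and replicate spread is unknown.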
